A study of Saccharomyces cerevisiae with 20 samples.

Results

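At the RGI1 locus of budding yeast, nearly all ribosome footprints were counted on a pair of open reading frame (ORF) features whose names place them on the opposite strand to RGI1 and RRT13. YER067C-A, opposite RGI1, and YER066C-A, between RRT13 and RGI1, are 2 of the 7127 features in the deposited tables. They were chosen from the data: both were lower in MTF than in MTFi, and both were lower with EcFMT than with R42L in the RLI1_depl strain but not in the other strains. Those differences are therefore given as descriptions without a test. Tests were kept for arf1D, hrc1D and NIP1_depl, for the level of each feature and for the ratio of one feature to the other within a library. The choice drew on all 20 libraries. In these strains it used the difference between enzyme forms, over which the tests average. In RLI1_depl the features had to be lower with EcFMT, so levels and ratios in that strain are also given without a test.

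Footprints, the RNA fragments shielded from RNase I by 80S ribosomes, made up 20 libraries of Saccharomyces cerevisiae, 2 for each of 10 groups. Every group grew in synthetic complete medium at 30 °C to an A600 near 0.5 and, per the labels, was an fmt1 yeast carrying either the methionyl-tRNA formyltransferase of Escherichia coli, EcFMT, or its R42L form. Of these, 4 groups carried EcFMT and 4 carried R42L, in the strains arf1D, hrc1D, NIP1_depl and RLI1_depl. The remaining 2 groups are labelled only MTFi and MTF, and their enzyme form and strain are not spelled out. The labels do not say whether replicates were separate cultures, so a p-value here covers library-to-library spread alone, which may be technical. Totals ran from 58090 to 505676 expected counts per library. The genes that the strain names refer to could not be followed, since FMT1 and RLI1 held 0 counts, NIP1 2, ARF1 2.5 and HCR1, which the label hrc1D resembles, 3.84 over all libraries.

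RGI1 encodes a small protein of energy metabolism that is induced when yeast respires, and RGI2 is its paralog. RRT13 is an ORF whose function is not known. Methionyl-tRNA formyltransferases formylate the amino acid carried by initiator tRNA. Bacteria and mitochondria start translation with formyl-methionine, whereas cytosolic ribosomes of yeast normally start with unmodified methionine, and Fmt1 is the yeast enzyme of mitochondria. Nip1 is the eIF3c subunit of an initiation factor, Rli1 is an ATPase that splits ribosomes after termination, and Arf1 is a GTPase of Golgi transport.

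Over the 20 libraries YER067C-A held 1731 counts, or 0.0347% of all counts, on an annotated length of 324 nt. YER066C-A held 1369.35 counts, or 0.0274%, on 501 nt. By average level they ranked 160 and 202 among the 1401 features that passed the filter on low counts. RGI1 itself (R64 chromosome V, 292066 to 292551) held 11 counts, at most 2 in a library, and RRT13 (V, 290242 to 290799) held 4 counts, all in 1 library. The counts therefore lay on the features and not under the names of the genes across from them. The sources used here do not say whether counting used strand, so footprints of RGI1 and footprints of a transcript from its other strand cannot be told apart. Most counts in these tables lay in the same way: 96.0% fell on ORF features outside the RefSeq gene table. Assignment was nearly free of ambiguity, since the posterior SD of the count was 0 for YER067C-A in every library and at most 0.47 counts for YER066C-A.

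The features stood in different order in different strains. In MTFi, YER067C-A held 250 and 443 counts and YER066C-A 95 and 193. In MTF, YER067C-A held 115 and 76 counts and YER066C-A 43 and 36.34. YER067C-A was the larger in all 4 of these libraries. In arf1D it held 153 and 103 counts with EcFMT and 109 and 83 with R42L, where YER066C-A held 60 and 43 with EcFMT and 42 and 38 with R42L. In hrc1D the order turned, with YER067C-A at 79 and 95 counts with EcFMT and 44 and 41 with R42L, and YER066C-A at 115 and 106 with EcFMT and 76 and 62 with R42L. On average the ratio of the counts was farthest from equal in NIP1_depl. There YER067C-A held 7 and 17 counts with EcFMT and 13 and 18 with R42L, while YER066C-A held 105 and 63.01 with EcFMT and 49 and 57 with R42L. In RLI1_depl with EcFMT the counts were 4 and 12 for YER067C-A and 27 and 30 for YER066C-A. With R42L they were 29 and 40 for YER067C-A and 47 and 82 for YER066C-A.

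**Figure D1:**
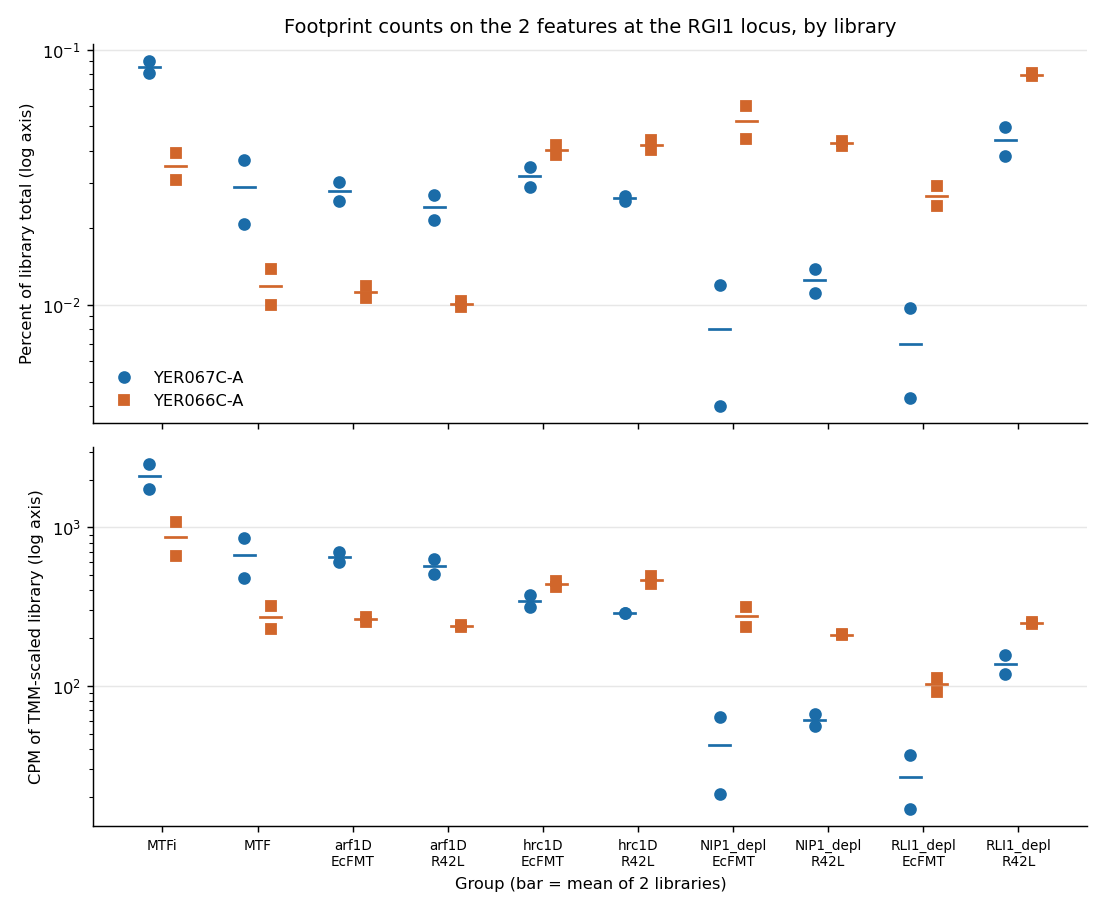
Share of each library's expected counts on YER067C-A (circles) and YER066C-A (squares) in the upper panel, and CPM of the TMM-scaled library in the lower panel, both on log axes, with 1 point per library and a bar at the mean of 2 libraries. YER067C-A is above YER066C-A in MTFi, MTF and arf1D and below it in hrc1D, NIP1_depl and RLI1_depl under either scale.

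A ratio taken within a library needs no scaling between libraries, and that of the features differed between strains. YER066C-A counts per YER067C-A count were 0.413 ± 0.0328 in arf1D (SD, n = 4, both enzyme forms), with values from 0.385 to 0.458. They were 1.45 ± 0.253 in hrc1D, from 1.12 to 1.73. In NIP1_depl they were 6.41 ± 5.73, from 3.17 to 15, with a median of 3.74, and in RLI1_depl 3.23 ± 2.37, from 1.62 to 6.75, with a median of 2.27. The ratio was 0.380 and 0.436 in MTFi and 0.374 and 0.478 in MTF, so the highest of the 8 libraries of MTFi, MTF and arf1D lay below the lowest of the other 12. Per nucleotide of annotated length, the density of YER066C-A over that of YER067C-A was 0.267 ± 0.0212 for arf1D and 0.939 ± 0.164 for hrc1D, while NIP1_depl had 4.15 ± 3.71 and RLI1_depl 2.09 ± 1.54 (SD, n = 4 each).

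Between strains the ratio was compared on the log2 scale by exact two-sided permutation tests of 4 against 4 libraries, with 6 pairs compared and Benjamini-Hochberg adjustment over them. Against arf1D the ratio was 3.48-fold higher in hrc1D and 12.3-fold in NIP1_depl, each with no overlap and an adjusted p = 0.0429 (exact permutation). NIP1_depl was also 3.54-fold above hrc1D, again without overlap (exact permutation, adjusted p = 0.0429). For these pairs the raw p was 0.0286, the smallest that 70 splits allow. Strain differences in both directions were common among features not in RefSeq. Fitted alone, 33.2% of them were called higher and 35.7% lower in hrc1D than in arf1D. In NIP1_depl against arf1D these shares were 38.6% and 41.8%. Ratios of other feature pairs were not compared, so the differences are not shown to be particular to this pair. Pairs with RLI1_depl entered the adjustment but are given as a description, since the choice used low values in that strain. RLI1_depl was 6.64-fold above arf1D without overlap and 1.91-fold above hrc1D with overlapping values. It overlapped with NIP1_depl (difference on the log2 scale -0.89). Leaving out any library kept every direction but left 35 splits at most, too few to pass. Adjusted p then ran from 0.0686 to 0.0857 for the pairs without RLI1_depl (exact permutation).

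Small counts set the precision of the highest ratios. The value of 15 in NIP1_depl with EcFMT, replicate 1, rests on 7 counts of YER067C-A and has an exact 95% counting interval from 7.03 to 38.2. The 6.75 in RLI1_depl with EcFMT, replicate 1, rests on 4 counts, with an interval from 2.35 to 26.5. Such intervals cover counting error only. With R42L libraries alone the log2 ratio was 1.94 higher in hrc1D than in arf1D, 3.04 higher in NIP1_depl and 2.12 higher in RLI1_depl, and RLI1_depl was 0.17 above hrc1D. The share of counts under RefSeq gene names moved with the ratio in part: arf1D had 1.52% ± 0.0441, hrc1D 3.66% ± 0.299, NIP1_depl 9.80% ± 0.172 and RLI1_depl 18.2% ± 2.55 (SD, n = 4 each). Its part in the ratio was not tested.

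**Figure D2:**
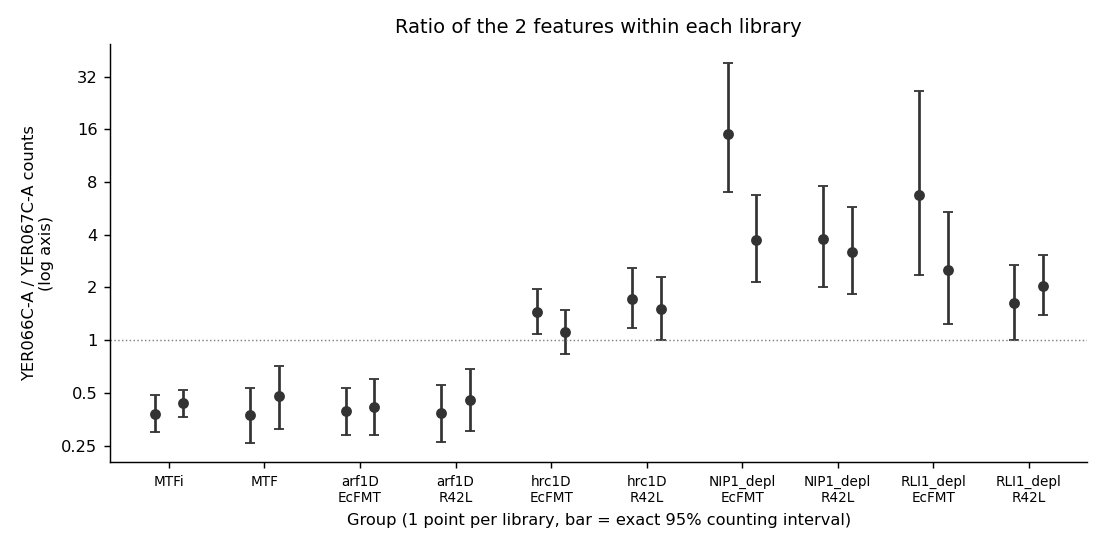
Counts of YER066C-A divided by counts of YER067C-A in each library, on a log axis, with exact 95% counting intervals and a dotted line at equal counts. The 8 libraries of MTFi, MTF and arf1D sit between 0.374 and 0.478 and the other 12 between 1.12 and 15.

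Taken singly, the level of each feature between strains depended on how libraries were scaled. The composition of the libraries differed so much by strain that TMM scaling factors (edgeR's trimmed mean of M-values) ran from 0.362 to 3.33. As a share of library totals, YER067C-A took 0.0260% ± 0.00363 in arf1D and 0.0290% ± 0.004 in hrc1D, against 0.0102% ± 0.0043 in NIP1_depl and, over both forms, 0.0256% ± 0.022 in RLI1_depl (SD, n = 4). YER066C-A took least in arf1D, at 0.0107% ± 0.000861, and more elsewhere, with hrc1D at 0.0414% ± 0.00241, NIP1_depl at 0.0476% ± 0.00843 and RLI1_depl at 0.0532% ± 0.0307. The wide SDs in RLI1_depl span the difference between enzyme forms by which the features were chosen.

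YER067C-A was lower in NIP1_depl than in arf1D and hrc1D under every scaling tried. In edgeR's quasi-likelihood test over all 1401 features, with the mean of EcFMT and R42L libraries compared between strains, the log2 difference was -3.60 against arf1D (SE 0.20, adjusted p = 2.44e-69) and -2.65 against hrc1D (SE 0.22, adjusted p = 4.03e-31). Without scaling factors the differences were -1.39 and -1.54. Of all features, 21.8% were called lower and 40.4% higher in NIP1_depl than in arf1D, which became 6.71% and 74.2% without scaling factors. Against hrc1D, 19.9% were called lower, and 7.21% without scaling factors. Only 35 of the 1401 features had a lower log2 difference than YER067C-A in NIP1_depl against arf1D, 29 of them among the 437 features not in RefSeq. The median over all features was 1.19, and that over features not in RefSeq was -1.09.

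In RLI1_depl, YER067C-A was also at a lower level, with a log2 difference of -3.30 against arf1D (SE 0.20) and -2.35 against hrc1D (SE 0.22), where 21.8% and 22.3% of features were called lower. Without scaling factors these were -0.50 and -0.66, and 4.21% and 3.64% of features were called lower. With R42L libraries alone they were -2.08 and -1.10 under TMM scaling, but the R42L libraries of RLI1_depl held a larger share of their totals on YER067C-A (0.0441% ± 0.0082) than those of arf1D (0.0242% ± 0.00382; SD, n = 2 each). The difference from NIP1_depl was 0.30 (SE 0.30), where 23.8% of features were called higher and 18.9% lower. It was 0.88 without scaling factors, 1.11 with R42L alone and -0.51 with EcFMT alone.

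Between hrc1D and arf1D the features parted. YER067C-A was lower in hrc1D by a log2 difference of -0.95 under TMM scaling (SE 0.16, adjusted p = 1.73e-08, edgeR; 16.8% of features called lower, 5.5% without scaling factors), but the sign turned without scaling factors, at 0.15 (adjusted p = 0.44, edgeR), and DESeq2 gave -0.59 with an adjusted p = 0.0733. YER066C-A was higher in hrc1D by 0.85 (SE 0.17, adjusted p = 7.57e-06, edgeR), and by 1.96 without scaling factors. Of all features, 18.7% were called higher. YER066C-A had a larger log2 difference than 812 of the 1401 features, and than 374 of the 437 not in RefSeq.

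Against arf1D and hrc1D, YER066C-A had no direction in the depleted strains that held across scalings. Its log2 difference from arf1D in NIP1_depl was -0.05 (SE 0.18, adjusted p = 0.857, edgeR), but 0.79 with RLE size factors and 2.17 without scaling factors, where 74.2% of features were called higher. Against hrc1D it was lower in NIP1_depl by -0.90 (adjusted p = 3.12e-07, edgeR), where 19.9% of features were called lower and 25.6% higher, but the difference was 0.22 without scaling factors. In RLI1_depl, described without a test, the difference from arf1D was -0.66 (SE 0.19), 0.34 with RLE size factors and 2.14 without scaling factors, where 90.2% of features were called higher. It lay in the EcFMT libraries, at -1.38 with EcFMT alone and 0.062 with R42L alone. Against hrc1D it was -1.51, where 22.3% of features were called lower and 35.2% higher, and 0.18 without scaling factors. Between the depleted strains, RLI1_depl minus NIP1_depl was -0.61 under TMM scaling, -0.45 with RLE size factors and -0.03 without scaling factors. It was -1.45 with EcFMT alone and 0.23 with R42L alone.

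**Figure D3:**
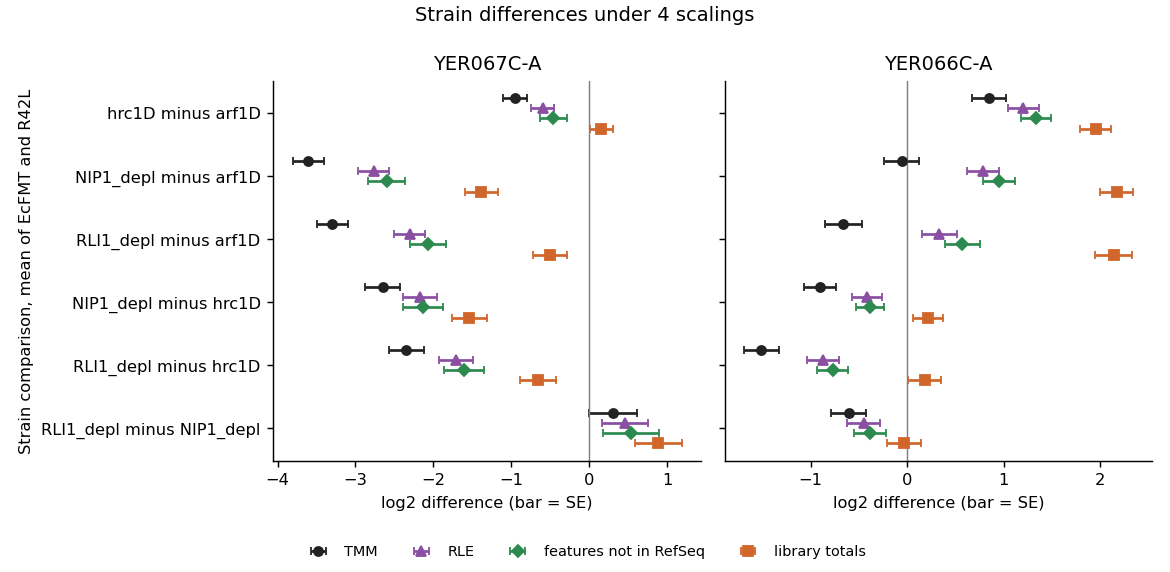
Log2 differences between strains for YER067C-A (left) and YER066C-A (right), with bars for 1 SE, under TMM factors, RLE factors, a fit of the features not in RefSeq alone, and library totals. With both enzyme forms averaged, all 4 scalings put YER067C-A lower in NIP1_depl and RLI1_depl than in arf1D and hrc1D. YER066C-A changes sign with the scaling in 4 of the 6 rows.

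The comparisons that chose the features showed them moving alike in MTF and less alike in RLI1_depl. Scaled levels of YER067C-A were 1740 and 2492 CPM (counts scaled to libraries of equal TMM-scaled size) in MTFi against 850 and 479 in MTF. For YER066C-A they were 661 and 1086 in MTFi against 318 and 227 in MTF. The groups did not overlap, as in 17% of all features with MTF lower, and the log2 differences of -1.69 (SE 0.19) and -1.70 (SE 0.24) were nearly equal, so the ratio between the features was close in MTFi and MTF. Over all features 1.43% were called lower and 0.286% higher in MTF, and 1.36% and 1.43% without scaling factors. The MTF replicates were themselves less alike than any other pair, with 8.59 as the chi-square of their counts per degree of freedom, where the other groups had 1.46 to 2.88. Without one library in turn the differences ran from -2.12 to -1.30 for YER067C-A and from -1.98 to -1.28 for YER066C-A.

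In RLI1_depl, YER067C-A stood at 16.7 and 36.6 CPM with EcFMT and 156 and 119 with R42L. YER066C-A stood at 113 and 91.4 with EcFMT and 253 and 245 with R42L. Neither overlapped, as in 20.5% of all features with EcFMT lower, and the log2 differences were -2.23 (SE 0.39) and -1.29 (SE 0.28), with 0.642% of features called lower and 2.57% higher. Without scaling factors that split turned to 2% lower and 0.785% higher. The ratio was 6.75 and 2.50 with EcFMT and 1.62 and 2.05 with R42L. Without RLI1_depl EcFMT replicate 2, YER067C-A rested on the 4 counts of replicate 1 and its difference was -2.94.

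The other strains gave smaller values of both signs. With EcFMT minus R42L, YER067C-A had a log2 difference of 0.20 (SE 0.21) in arf1D, 0.26 (SE 0.24) in hrc1D and -0.61 (SE 0.41) in NIP1_depl. In NIP1_depl the value was -1.56 without EcFMT replicate 2 and 0.015 without EcFMT replicate 1. YER066C-A had 0.15 (SE 0.27) in arf1D, -0.09 (SE 0.23) in hrc1D and 0.39 (SE 0.24) in NIP1_depl. In each of these 3 comparisons edgeR called 0% of features and DESeq2 none, with 41, 58 and 43 features at an unadjusted p under 0.05 in edgeR. Levels without overlap were seen for YER067C-A in hrc1D and for YER066C-A in arf1D and NIP1_depl, each time higher with EcFMT. Of all features, 18.2% in hrc1D, 11% in arf1D and 23.3% in NIP1_depl had such levels. Whether the RLI1_depl response differs from that of the other strains is part of how the features were chosen and was not tested.

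The next feature along the chromosome, YER068C-A, did not follow them in the comparisons that chose them. Between strains it was lower than in arf1D under TMM scaling, as YER067C-A was. Its log2 differences were -1.65 in hrc1D, -2.74 in NIP1_depl and -3.02 in RLI1_depl, beside -0.95, -3.60 and -3.30 for YER067C-A. YER068C-A (432 nt, 6944.65 counts), between the Ccr4-Not subunit gene MOT2 and the arginine biosynthesis gene ARG56, held 402 and 664 counts in MTFi and 371 and 503.07 in MTF. Its log2 difference in MTF minus MTFi was -0.15 (SE 0.15, adjusted p = 0.768, edgeR), and 0.059 with RLE size factors. In RLI1_depl it held 157 counts in each EcFMT library against 74 and 138 with R42L, a log2 difference of 0.47 (SE 0.19, adjusted p = 0.194, edgeR). Counted per YER068C-A count, YER067C-A was 0.622 and 0.667 in MTFi against 0.310 and 0.151 in MTF, and 0.0255 and 0.0764 with EcFMT against 0.392 and 0.290 with R42L in RLI1_depl. YER066C-A per YER068C-A count was 0.236 and 0.291 in MTFi against 0.116 and 0.0722 in MTF, and 0.172 and 0.191 against 0.635 and 0.594 in RLI1_depl. These ratios use the values that chose the features and are a description.

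Of the 21 features from YER060W to YER075C, 8 passed the filter, the members and 6 more: FCY22, GPP2, the isocitrate lyase gene ICL1, YER068C-A, VTC1 and PTP3. Of these 6, edgeR called 0 in MTF against MTFi and 0 in RLI1_depl between enzyme forms. At an unadjusted p under 0.05 in edgeR these were 0 and 1, and DESeq2 called 0 in both. Of all features, edgeR called 1.71% and 3.21%, so 0 of 6 is near those shares. Apart from YER068C-A, the 6 held only 52 to 188 counts each over all libraries. These calls therefore do not show whether the neighbours follow the members. RGI2 (IX, 247902 to 248396) held 0 counts, which allows up to 6.01e-05% of all counts. YIL058W, beside RGI2 and on the opposite strand by its name, held 475 counts on 285 nt. It held 3 to 5 counts a library in MTFi and 1 in each MTF library, with a log2 difference of -1.79 (SE 1.05, adjusted p = 0.608, edgeR). In RLI1_depl its difference was -0.53 (SE 0.32, adjusted p = 0.476, edgeR). Between strains, under TMM scaling, YIL058W went the other way from YER067C-A. It was higher than in arf1D by a log2 difference of 1.14 in hrc1D (adjusted p = 0.0201), 2.72 in NIP1_depl (adjusted p = 9.57e-16) and 2.52 in RLI1_depl (adjusted p = 3.8e-13, edgeR). Of all features, 18.7%, 40.4% and 51.5% were called higher. In RLI1_depl, 856 of the 1401 features had a lower log2 difference than YIL058W. Without scaling factors YER067C-A was itself at 0.15 in hrc1D, and YIL058W stood at 2.22, 4.91 and 5.29. The call in hrc1D was lost without replicate 1 of arf1D EcFMT, replicate 1 of arf1D R42L, replicate 2 of hrc1D EcFMT or either hrc1D R42L library (adjusted p from 0.0511 to 0.219, edgeR).

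**Figure D4:**
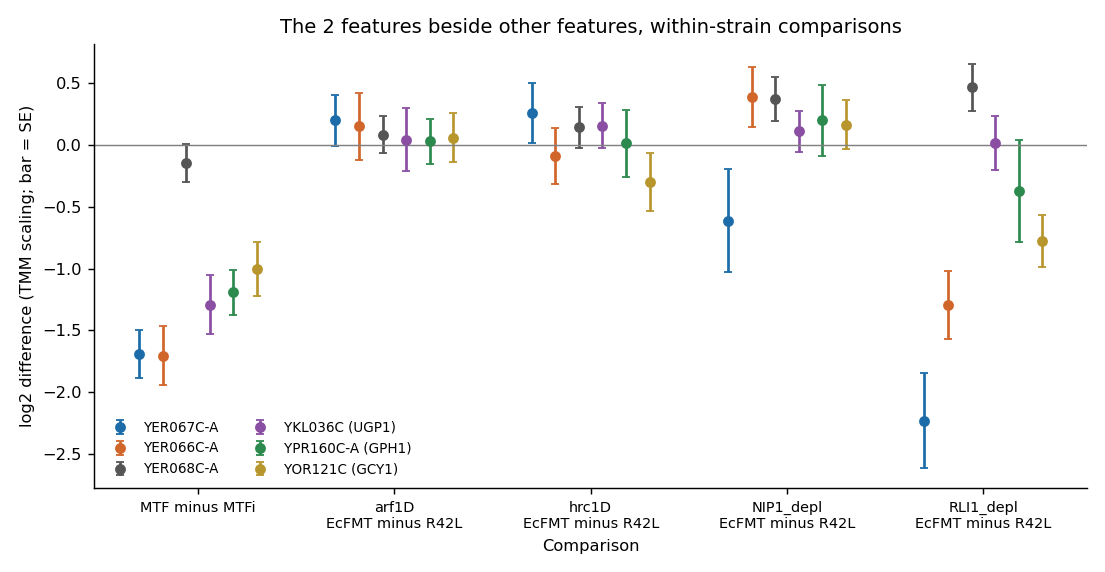
Log2 differences with bars for 1 SE, under TMM scaling, in MTF minus MTFi and in EcFMT minus R42L of each strain, for YER067C-A, YER066C-A and the features YER068C-A, YKL036C, YPR160C-A and YOR121C, with the gene across from the last 3 in brackets. The values of YER067C-A and YER066C-A are a description, since these comparisons chose them, and YOR121C is the other feature shown that was called in both MTF and RLI1_depl.

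Lists of genes that yeast regulates with glucose, respiration and stress were followed under the genes' own names and through features opposite them. Whether counting used strand is not known, so counts under either name are not shown to be footprints of the listed gene. In the reserve carbohydrate list, 7 of the features followed passed the filter and 2 were lower in MTF, where 1.43% of all features were called lower. YKL036C, opposite UGP1, whose enzyme makes UDP-glucose, fell by 1.29 on the log2 scale (SE 0.24, adjusted p = 1.91e-05, edgeR). YPR160C-A, opposite the glycogen phosphorylase gene GPH1, fell by 1.19 (SE 0.18, adjusted p = 3.36e-08, edgeR). In RLI1_depl between enzyme forms neither passed, with 0.02 (adjusted p = 0.998) for YKL036C and -0.37 (adjusted p = 0.811, edgeR) for YPR160C-A. Levels were 28 and 48 counts in MTF against 75 and 130 in MTFi for YKL036C, and 139 and 131 against 261 and 425 for YPR160C-A.

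The single stress-list feature that passed the filter was called in both. YOR121C, opposite the aldo-keto reductase gene GCY1, was lower in MTF by a log2 difference of -1.003 (SE 0.22, adjusted p = 0.000706, edgeR) and in RLI1_depl with EcFMT by -0.78 (SE 0.21, adjusted p = 0.0123, edgeR). The MTF call was lost without MTFi replicate 2 (adjusted p = 0.145) or MTF replicate 2 (adjusted p = 0.229, edgeR), and that in RLI1_depl without any of the 4 libraries (adjusted p from 0.198 to 0.321, edgeR) and with no filter on low counts (adjusted p = 0.145, edgeR). Of 7 features of the respiratory chain and TCA cycle, 1 was lower in MTF: YOR135C, between BAG7 and the isocitrate dehydrogenase gene IDH2, at -0.56 (adjusted p = 0.0082, edgeR), a call lost without MTFi replicate 2 or MTF replicate 2, with no filter (adjusted p = 0.0765) and with only the libraries compared (adjusted p = 0.0879, edgeR). None of 13 features of glucose-repressed genes was called by edgeR in MTF or between forms in RLI1_depl, and none by DESeq2. In each comparison 0 had an unadjusted p under 0.05 in edgeR. Of all features, edgeR called 1.71% and 3.21% in these comparisons. A count of 0 among 13 is near those shares and is not a result about the list.

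Between strains the glucose-repressed list stood higher than in arf1D, opposite to YER067C-A. Of its 13 features, 8 were called higher in hrc1D, 8 in NIP1_depl and 10 in RLI1_depl, with none lower, where 18.7%, 40.4% and 51.5% of all features were called higher. Several of the 13 had 0 to 3 counts in arf1D. They passed the filter through other strains and could hardly be called lower, so the calls and medians of this list are a description. The list's median log2 differences were 2.25, 2.83 and 3.28 beside 0.37, 1.19 and 1.75 over all features. These all-feature values include the features not in RefSeq, whose medians were -0.50, -1.09 and -1.02. All but 1 of the 13 are RefSeq genes, for which no separate median or share was computed. How far the list exceeds other RefSeq genes is therefore not shown. The list medians were the same with the feature at 0 counts in arf1D put at its bound (3 counts over the group). FOX2, an enzyme of peroxisomal fatty acid oxidation, was higher by 1.95, 3.32 and 3.06 in hrc1D, NIP1_depl and RLI1_depl (adjusted p = 0.00434, 8.72e-12 and 1.11e-09, edgeR). FBP1, a gluconeogenic gene, was higher by 2.64 in hrc1D and 3.28 in RLI1_depl. Others had too few counts in the 4 arf1D libraries for a fold. PCK1, the gluconeogenic phosphoenolpyruvate carboxykinase gene, held 0 counts there and 17, 45 and 61 in hrc1D, NIP1_depl and RLI1_depl, and ICL1 held 3 there and 22, 60 and 40. The catalase gene CTA1 held 2 in arf1D, 37 in hrc1D and 87.05 in RLI1_depl. In NIP1_depl, the carboxylate carrier gene SFC1 held 55 counts against 1 in arf1D. YHR095W, between HXT1 and HXT5 and followed only as a neighbour, held 93 there against 2. Apart from those of YHR095W, these counts lay under gene names, and the strand limit given for RGI1 holds for all of them. The share of the library under gene names was higher in these strains, as given above. The part of that share in these differences was not tested.

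The reserve carbohydrate list split. YPR160C-A went with YER067C-A, at -2.34, -3.11 and -4.42 in hrc1D, NIP1_depl and RLI1_depl against arf1D (adjusted p = 2.08e-48, 1.03e-81 and 1.79e-119, edgeR) and at -1.23, -0.88 and -1.62 without scaling factors. It was the single feature of this list called lower in each strain, where 16.8%, 21.8% and 21.8% of all features were, beside 3, 4 and 4 called higher. YKL036C was among these, by 1.96 in hrc1D and 2.31 in NIP1_depl, as was PGM1, by 2.37 in NIP1_depl. The rest had at most 3 counts in arf1D, so they passed the filter through other strains and could hardly be called lower. GSY2 held 3 in arf1D and 24 in hrc1D, and GAC1 3 against 26 in hrc1D and 36 in RLI1_depl. PIG2 held 0 in arf1D against 26 in NIP1_depl and 15 in RLI1_depl, and GLG2 1 against 15.1 in RLI1_depl. Genes of this list make, break down or regulate glycogen and its precursors.

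In the respiratory list 1, 3 and 1 features were called higher than in arf1D and 1, 2 and 2 lower, in the same order of strains, beside the shares of all features already given. Without scaling factors these counts were 2, 5 and 6 higher and 0, 0 and 0 lower, where 45.1%, 74.2% and 90.2% of all features were called higher and 5.5%, 6.71% and 4.21% lower. COX5B, which encodes an alternative subunit of cytochrome oxidase, had a log2 difference of -1.34 in hrc1D and -3.09 in NIP1_depl, neither of which passed without scaling factors (adjusted p = 0.834 and 0.173, edgeR). COX12 held 16 counts in NIP1_depl and 38 in RLI1_depl against 3 in arf1D. YNR001W-A, between CIT1 and ATO2, held 18 in NIP1_depl against 1 in arf1D. YOR135C stood at 0.64, -1.12 and -0.86, YDL068W, beside COX9, at -1.19 in RLI1_depl and the stress-list feature YOR121C at -1.16, -0.71 and -1.07. For these 3 features the values in NIP1_depl and RLI1_depl turned positive without scaling factors. Of the neighbours on chromosome V, YER068C-A stood at -1.65, -2.74 and -3.02 (-0.53, -0.51 and -0.21 without scaling factors) and VTC1 at -1.87 in hrc1D (-0.80 with adjusted p = 0.445 in edgeR without scaling factors) and 1.71 in RLI1_depl. FCY22 held 17 counts in NIP1_depl against 2 in arf1D, and PTP3 26.97 and 48.85 in NIP1_depl and RLI1_depl against 2.

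Over the 10 group means of log2 CPM, the members were correlated with each other at a Pearson r of 0.723 (Spearman rho 0.503), which ranked 197 among 1285 features by likeness to YER067C-A and 12 by likeness to YER066C-A. The features most like YER067C-A were YNL170W, beside PSD1 (r = 0.966), YGR228W, beside SMI1 (0.957), YGR176W, between ERG1 and ATF2 (0.952), YGR219W, beside the mitochondrial ribosomal protein gene MRPL9 (0.951), and YOR053W, between TMC1 and VHS3 (0.951). All 5 are ORF features without a RefSeq gene. Those most like YER066C-A were EMA19 (0.875), YBL062W, beside SKT5 (0.839), YBL012C, between SCT1 and FMT1 (0.817), YHL019W-A, between APM2 and OPI1 (0.793), and KXD1 (0.754). Group means share library composition and scaling, and they include the groups in which the members were chosen for moving the same way. These values are therefore descriptions, and no link between the members is drawn from them. By Pearson r, YER067C-A had many features of like pattern and YER066C-A few: the fifth in its order was at 0.754 against 0.951. By Spearman rho the 5 named for YER066C-A ranked 24, 13, 1, 41 and 9, in the order given. EMA19 and KXD1 held only 101 and 103 counts over all libraries.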

How the data were processed

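Ribosome footprints from 20 yeast libraries were used. The submitters' processing notes name build R64, STAR 2.7.2b and RSEM 1.2.31. The values deposited by the authors are RSEM expected counts per feature, with no scaling for depth, beside each feature's length. Tests used them rounded to whole numbers. Locus tags matched 6047 features to a RefSeq gene table. Positions of features outside that table are not used here and were read from systematic names.

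The main test was edgeR 4.0.16 (quasi-likelihood, robust, R 4.3.3), with 1 mean for each group of the 20 libraries, 10 residual degrees of freedom, TMM factors and filterByExpr at a minimum count of 10, tested on simulated data first. P-values were adjusted over 1401 features (Benjamini-Hochberg) and called under 0.05. A strain difference is the mean of EcFMT and R42L in one strain minus that in another. Ratios were compared with scipy 1.17.1. Totals per library, from 58090 to 505676, limit the precision of low counts.

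Members, gene lists and tests were chosen with earlier results of these data known. Features named are the members, RGI1, RRT13, RGI2 and its neighbour, locus neighbours passing the filter, the 5 features most like each member (average log2 CPM 4 or more), and up to 4 called features per list and comparison at that level, given here for the comparisons that chose the members and for strains against arf1D. Alternatives were RLE factors, no scaling factors, no filter, DESeq2 1.42.0, all deposited features, a replicate block, each enzyme form alone, only the libraries compared and each library left out. A fit of features not in RefSeq, a crossed block and ratios to YER068C-A were added after seeing the data.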

Additional observations from a re-analysis of the deposited data

Results flagged for a closer look

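In NIP1_depl with EcFMT, replicate 1 stood apart from the other 3 libraries of its strain. Its log2 ratio of YER066C-A to YER067C-A was 3.91, and the gap to the nearest library was 0.888 of the range. Its log2 CPM of YER067C-A was 4.91, with a gap of 0.839 of the range. Both rest on the same 7 counts of YER067C-A. The search covered 12 sets of 4 libraries, and chance flags about 1 in 20 of them.

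For 6 pairs of comparisons, every library of one moved one way and every library of the other moved the opposite way. These differences were not tested, and the features were chosen for such a pattern. YER067C-A had a log2 difference of -1.69 in MTF minus MTFi and -2.23 between forms in RLI1_depl, each against 0.26 between forms in hrc1D. YER066C-A had -1.70 in MTF minus MTFi and -1.29 in RLI1_depl, each against 0.15 in arf1D and 0.39 in NIP1_depl.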

How the results depend on the processing

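YER067C-A kept its direction and call in NIP1_depl against arf1D and hrc1D under all 18 alternatives run for each. So did YER066C-A in hrc1D against arf1D. In RLI1_depl, YER067C-A kept its direction against arf1D and hrc1D under all 18, but none of them joined R42L libraries to library totals. As shares of R42L totals it took more in RLI1_depl (0.0499% and 0.0383%) than in arf1D (0.0269% and 0.0215%) or hrc1D (0.0256% and 0.0267%). In MTF minus MTFi the log2 differences of YER067C-A ran from -2.12 to -1.30 and those of YER066C-A from -1.98 to -1.28 over 13 alternatives each, leaving out each library included. The cause of the changes below was not tested, apart from counts that fall because fewer features or libraries enter. Low counts limit YER067C-A in the depleted strains, at 4 to 18 counts a library outside RLI1_depl with R42L.

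Log2 differences of YER067C-A changed as follows. For hrc1D minus arf1D it was 0.15 without scaling factors and -0.59 with DESeq2. For RLI1_depl minus NIP1_depl it was 0.88 without scaling factors, 1.11 with R42L alone and -0.51 with EcFMT alone. Between forms in hrc1D it was 0.51 with no filter on low counts.

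For YER066C-A in NIP1_depl minus arf1D, values were 0.79 with RLE factors, 2.17 without scaling factors, 0.091 with no filter, 0.79 with DESeq2, 0.95 with features not in RefSeq, 0.066 with EcFMT alone and 0.12 with only the libraries compared. In RLI1_depl minus arf1D they were 0.34 with RLE factors, 2.14 without scaling factors, -0.49 with no filter, 0.34 with DESeq2, 0.57 with features not in RefSeq and 0.062 with R42L alone. Against hrc1D, NIP1_depl gave 0.22 without scaling factors and -0.42 with DESeq2, and RLI1_depl 0.18 without scaling factors. RLI1_depl minus NIP1_depl gave -0.032 without scaling factors, -0.45 with DESeq2 and 0.23 with R42L alone. Between forms it was 0.27 in arf1D and 0.16 in hrc1D with no filter, and in RLI1_depl -1.60 without scaling factors, -1.58 with features not in RefSeq and -1.58 as a share of the library total.

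Among other features, YER068C-A in MTF minus MTFi turned to 0.059 with RLE factors, 0.059 with DESeq2 and 0.0052 with only the libraries compared, and ran from -0.31 to 0.098 as single libraries were left out, the highest being without MTFi replicate 2. Between forms YIL058W ran from -0.11 to 0.71 in NIP1_depl and from -2.04 to 0.24 in arf1D. In NIP1_depl minus arf1D, YOR121C was 0.14 with RLE factors, 1.52 without scaling factors, 0.14 with DESeq2 and 0.30 with features not in RefSeq, and YOR135C 1.11 without scaling factors. In RLI1_depl minus arf1D, YOR121C was 1.74 without scaling factors and 0.16 with features not in RefSeq. There YOR135C was 0.15 with RLE factors, 1.95 without scaling factors, 0.15 with DESeq2 and 0.38 with features not in RefSeq, and YDL068W 1.60 without scaling factors and 0.043 with features not in RefSeq.

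Features called, against 497 in hrc1D minus arf1D, were 303 with features not in RefSeq and 329 with R42L alone. Against 871 in NIP1_depl minus arf1D and 1026 in RLI1_depl minus arf1D, features not in RefSeq gave 354 each. Against 638 in NIP1_depl minus hrc1D they were 292 with features not in RefSeq and 403 with R42L alone, and against 805 in RLI1_depl minus hrc1D 278 with features not in RefSeq. Against 598 in RLI1_depl minus NIP1_depl they were 303 with DESeq2, 233 with features not in RefSeq and 396 with EcFMT alone. Against 24 in MTF minus MTFi they were 43 with RLE factors, 39 without scaling factors and 9 with no filter. Between forms they were 1 against 0 in NIP1_depl with only the libraries compared, and against 45 in RLI1_depl 10 with no filter, 27 with DESeq2, 27 with features not in RefSeq and 69 with only the libraries compared.

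With each library left out in turn, the lone library of a group took its spread from the rest. YER066C-A in NIP1_depl minus arf1D ran from -0.17 to 0.035. In RLI1_depl minus NIP1_depl, YER067C-A ran from -0.079 to 0.76 and YER066C-A from -0.71 to -0.51. Between forms, YER067C-A ran from -1.56 to 0.015 in NIP1_depl and from -2.94 to -1.79 in RLI1_depl. Calls ran from 16 to 38 in MTF minus MTFi, from 11 to 19 between forms in RLI1_depl, from 0 to 1 in arf1D, from 0 to 2 in hrc1D and from 0 to 1 in NIP1_depl. The log2 ratio of the features ran from 1.71 to 1.92 in hrc1D, 3.10 to 3.85 in NIP1_depl and 2.30 to 2.98 in RLI1_depl against arf1D, and from 1.30 to 2.05 in NIP1_depl against hrc1D.

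Groups share replicate numbers 1 and 2, which the labels do not tie to a batch, and same-numbered libraries did not deviate together (correlations from -0.18 to 0.16 over 246 features). With the replicate block, 490, 866, 1005, 623, 790 and 583 features were called in the 6 strain pairs, 23 in MTF minus MTFi and 47 between forms in RLI1_depl, and the block changed no call of a member. With crossed numbers, for arf1D and NIP1_depl, 0 features were called in each.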
